A study of Homo sapiens with 15 samples.

Results

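Glutathione synthesis and use was followed here through 10 genes, SLC7A11, GCLC, GCLM, GSS, GSR, GPX2, GPX3, GPX4, MGST1 and GSTP1. They were chosen by name, as the rows of the count table whose Ensembl identifier maps to these symbols, and are 10 of 58219 genes in the table. BEAS-2B cells, an immortalized human bronchial epithelial cell line, were grown on collagen in a serum-free medium for bronchial epithelium and exposed to PM2.5, fine particulate matter extracted in water from filters collected in Beijing. For a single exposure, the medium was replaced for 24 h by fresh medium without (vehicle control) or with 1 or 30 µg/cm2 of the particles. For repeated exposure, cells plated at a lower density received medium alone or 1 µg/cm2 of PM2.5 every day, with washes in between, and were collected on day 7. The sample labels count 7 daily treatments and the study's methods 6. Each of the 5 conditions was sequenced from 3 independent experiments (15 libraries), and all libraries came from the same line, so the spread between experiments is that of repeated cultures and not of donors.

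Glutathione is a tripeptide of glutamate, cysteine and glycine, and it is the most abundant small thiol of the cell. Cystine is brought in by the exchanger xCT, whose transport subunit is SLC7A11, and reduced to cysteine. Glutamate-cysteine ligase, made of the catalytic subunit GCLC and the modifier subunit GCLM, then carries out the rate-limiting step, and glutathione synthetase (GSS) adds glycine. Peroxidases such as GPX2, GPX3 and GPX4 spend glutathione on hydrogen peroxide and lipid hydroperoxides, the transferases MGST1 and GSTP1 use it against electrophiles, and glutathione reductase (GSR) returns the oxidized dimer to the reduced form. In airway epithelium this system is known as a defence against inhaled oxidants, and several of its genes are known targets of NRF2, a transcription factor that binds the antioxidant response element. SLC7A11 is also known as a target of ATF4, the factor of the amino acid response.

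The core letters of the antioxidant response element, TGACNNNGC, were looked for on both strands of the 300-base promoter windows of RefSeq (GRCh38.p14, 250 bases before the start and 50 after). Of the 10 genes, 7 had a window in the table used here, and SLC7A11, GSS and GSR did not. The letters stood in 4 of these 7 windows, those of GCLM, GSTP1, GPX2 and MGST1, compared with 13.3% of all 35116 windows. They are shown with their flanks, one per gene with a match, 5′ to 3′ on the strand of the gene, with the matched letters in capitals.

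GCLM, chr1:93909446-93909474, minus strand: tacgatttctGCTTAGTCAttgtcttcca

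GSTP1, chr11:67583736-67583764, plus strand: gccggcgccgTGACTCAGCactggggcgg

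GPX2, chr14:64942849-64942877, minus strand: acctgtttttGCTAAGTCAtcctggggat

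MGST1, chr12:16347135-16347163, plus strand: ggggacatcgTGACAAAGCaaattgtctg

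Counted from the start, the match lay at -34 to -26 in GCLM, at -66 to -58 in GSTP1 and at -122 to -114 in GPX2, and at 30 to 38 after the start in MGST1. In GCLM and GPX2 it was read on the opposite strand. In GSTP1 its first 7 letters are also TGACTCA, the letters of an AP-1 site, which 4.95% of all windows held and no other window of the 7. The letters TGATGCAA, a form of the amino acid response element, were in 0.866% of all windows and in 0 of the 7. Of these 4 genes, GCLM was higher after 30 µg/cm2 of PM2.5 at 24 h. GSTP1 and MGST1 did not pass the test, and GPX2 had too few reads for a fold-change. GCLC was also higher, and its window did not hold the letters of the antioxidant response element. SLC7A11 and GSR, higher as well, had no window.

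Libraries held 21460981 to 34724765 reads assigned to genes, and levels are given as CPM, the count per 1e6 reads of the library size scaled by TMM (trimmed mean of M-values). On this scale 3 reads correspond to 0.0866 to 0.149 CPM. Such floors cover counting error only. All 10 genes were among the 17599 that passed the filter on low counts and were tested. The libraries of 24-h experiment 2 stood apart from those of experiments 1 and 3 of the same condition, with a chi-square per degree of freedom of 76.7 to 181 against 4.46 to 18.2 between experiments 1 and 3, and values of this experiment are named below wherever a result rests on them. The 8 bronchial epithelial markers examined were all detected, with a summed level of 3636 to 4157 CPM in the 24-h controls, 3164 to 4306 after 1 µg/cm2, 1693 to 2704 after 30 µg/cm2, 2914 to 3512 in the 7-day controls and 2176 to 2351 after daily exposure. The defining markers of endothelial cells (PECAM1, CDH5, VWF) and the leukocyte markers PTPRC, CD3E and CD79A were below 0.5 CPM in every library. The fourth leukocyte marker, CD14, was detected, at 11.3, 10.9 and 12.9 CPM in the 24-h controls and 2.30, 17.9 and 2.97 CPM after 30 µg/cm2. The 4 fibroblast markers summed to 75.8 to 101 CPM in the 24-h controls, 68.3 to 108 after 1 µg/cm2, 40.6 to 73.6 after 30 µg/cm2, 23.1 to 27.3 in the 7-day controls and 19.3 to 23.2 after daily exposure, and most of this was THY1 at 24 h. The part of these differences in marker levels in the results below was not tested, and in whole-culture RNA fewer expressing cells and less RNA per cell cannot be told apart.

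After 24 h with 30 µg/cm2, the cystine transporter, both ligase subunits and glutathione reductase were higher, and no peroxidase or transferase was called. SLC7A11 rose 7.62-fold, GCLC 5.04-fold, GCLM 2.71-fold and GSR 1.60-fold over vehicle control, while GSS, the 3 peroxidases and both transferases were not called. A gene was called when its adjusted p-value was below 0.05 and its log2 fold-change was 0.6 or more in size. Thus 4 of 10 genes were called higher and 0 lower, where 8.07% of all tested genes were called in either direction and 3.82% higher. The 10 genes were chosen with earlier results of these data known, so such shares describe them and do not test them as a set. The median log2 fold-change was 0.56 over the 9 genes other than GPX2, whose few reads are described below, and 0.03 over all tested genes. Without the libraries of experiment 2, again 4 of the 10 were called, beside 19.1% of tested genes, and with the experiment as a block 4 of the 10, beside 15.2%.

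**Figure D1:**
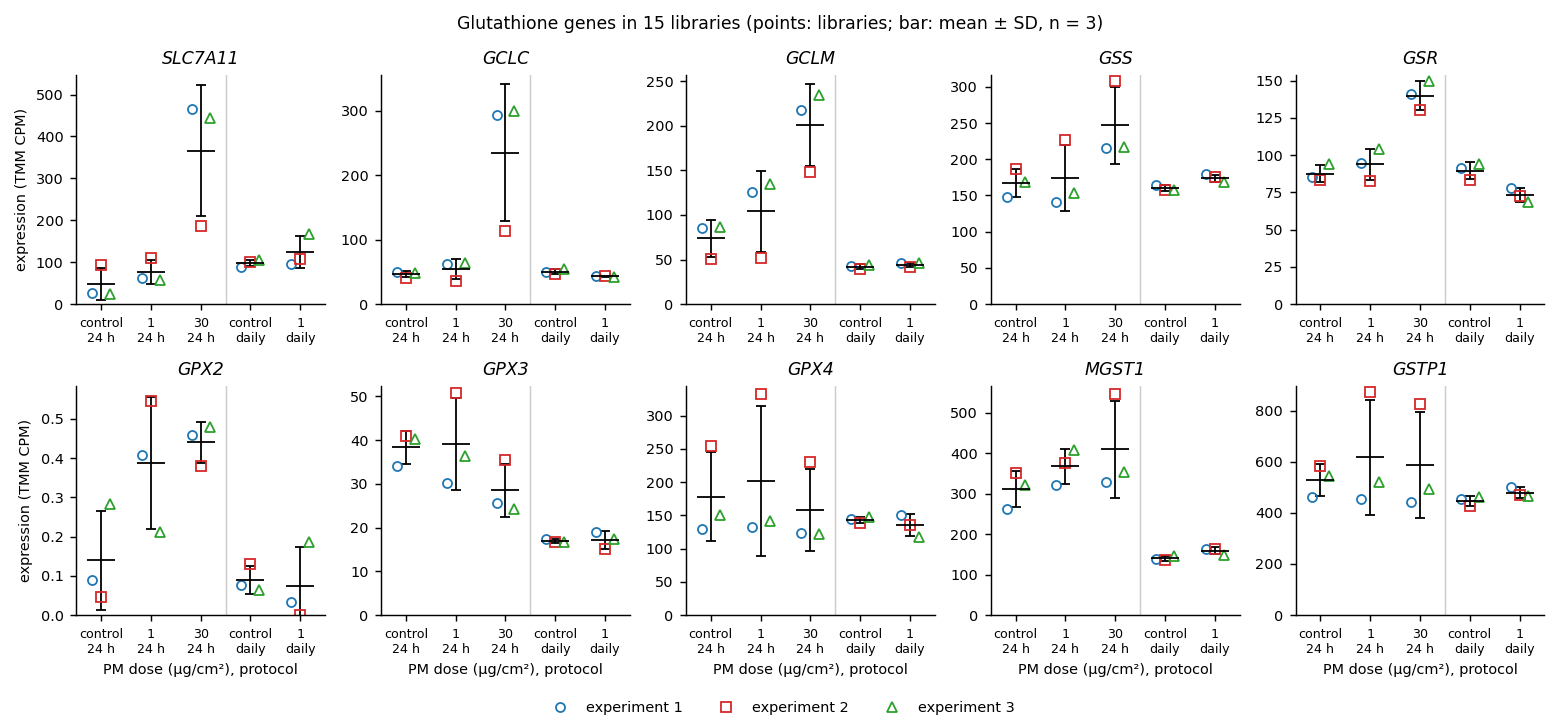
Levels of the 10 genes in each of the 15 libraries, on an axis of TMM-scaled CPM that differs between panels; symbols mark experiments 1, 2 and 3, and bars the mean ± SD of 3 libraries. SLC7A11 was at 466, 186 and 445 CPM after 30 µg/cm2 of PM2.5 and at 27.4, 93.2 and 23.7 CPM in its controls, whereas GSTP1 spanned 444 to 827 CPM after 30 µg/cm2 and 462 to 585 CPM in the controls.

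SLC7A11 (ENSG00000151012.13, chromosome 4, 138164097 to 138242349, minus strand of GRCh38) was the most responsive of the 10 genes by fold-change. Its level was 27.4, 93.2 and 23.7 CPM in the vehicle controls of experiments 1, 2 and 3 (48.1 ± 39.1, SD, n = 3) and 466, 186 and 445 CPM after 30 µg/cm2 (366 ± 156). The groups did not overlap, and the control of experiment 2 was the highest control and its treated library the lowest treated one. Within an experiment the ratio was thus 17.0, 2.0 and 18.8. The model gave a log2 fold-change of 2.93 with an SE of 0.507 (adjusted p = 0.00229), which ranged from 2.59 to 4.14 over 24 other settings, with the highest value when the libraries of experiment 2 were left out. SLC7A11-AS1, on the other strand, overlaps 9.0% of the exonic bases of SLC7A11. Whether strand was used in counting was not given in the sources used here. SLC7A11-AS1 itself held 1082 counts over all libraries, and the part of the overlap in the level of SLC7A11 was not tested.

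GCLC (ENSG00000001084.10, chromosome 6, 53497341 to 53616970, minus strand), which holds the active site of the ligase, stood at 50.3, 40.9 and 48.9 CPM in the controls (46.7 ± 5.08) and at 293, 113 and 299 CPM after 30 µg/cm2 (235 ± 106). All treated libraries were above all controls, and the treated library of experiment 2 was again the lowest, with a ratio of 2.77 against 5.83 and 6.12 in the other experiments. On the log2 scale GCLC rose by 2.33 (SE 0.304, adjusted p = 0.000312), and it was called in 24 of 24 other settings. A gene on the same strand, ENSG00000231683, overlaps 6.3% of the exonic bases of GCLC and held 51 counts over all libraries. The part of this overlap was not tested.

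GCLM (ENSG00000023909.9, chromosome 1, 93885205 to 93909456, minus strand), the subunit that raises the activity of the catalytic subunit, was at 85.9, 50.1 and 86.0 CPM in the controls (74.0 ± 20.7) and at 218, 148 and 235 CPM after 30 µg/cm2 (201 ± 46.2). Experiment 2 was the lowest in both groups, so that the ratio within an experiment was nearly the same in all 3, at 2.54, 2.96 and 2.74. GCLM rose by 1.44 on the log2 scale (SE 0.302, adjusted p = 0.00787), which missed the threshold in 1 of 24 other settings, the fit of the 24-h libraries alone (adjusted p = 0.0732). Between experiments the ratio spanned 2.77 to 6.12 for GCLC and 2.54 to 2.96 for GCLM. The low end for GCLC was that of experiment 2 alone, and this difference between the ligase subunits was not tested.

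GSS (ENSG00000100983.9, chromosome 20, 34928430 to 34955817, minus strand), the enzyme of the last step, was at 148, 187 and 168 CPM in the controls (167 ± 19.3) and at 215, 308 and 217 CPM after 30 µg/cm2 (247 ± 53.3). The groups did not overlap, but the difference was smaller than that of the ligase, at 0.56 on the log2 scale (95% interval 0.18 to 0.95, SE 0.179, adjusted p = 0.0649). Blocking on the experiment gave 0.54 with an adjusted p-value of 0.000694, which is still under the fold threshold. By the adjusted p-value of the block alone, 29.6% of all tested genes passed.

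GSR (ENSG00000104687.12, chromosome 8, 30678061 to 30727926, minus strand), the NADPH-dependent reductase, showed the smallest change among those called and the most even one. Its level was 85.6, 83.2 and 94.0 CPM in the controls (87.6 ± 5.71) and 141, 130 and 150 CPM after 30 µg/cm2 (140 ± 9.93), a ratio of 1.64, 1.56 and 1.59 within experiments. GSR rose by 0.68 on the log2 scale (SE 0.113, adjusted p = 0.00178) and, like SLC7A11 and GCLC, was called in 24 of 24 other settings.

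**Figure D2:**
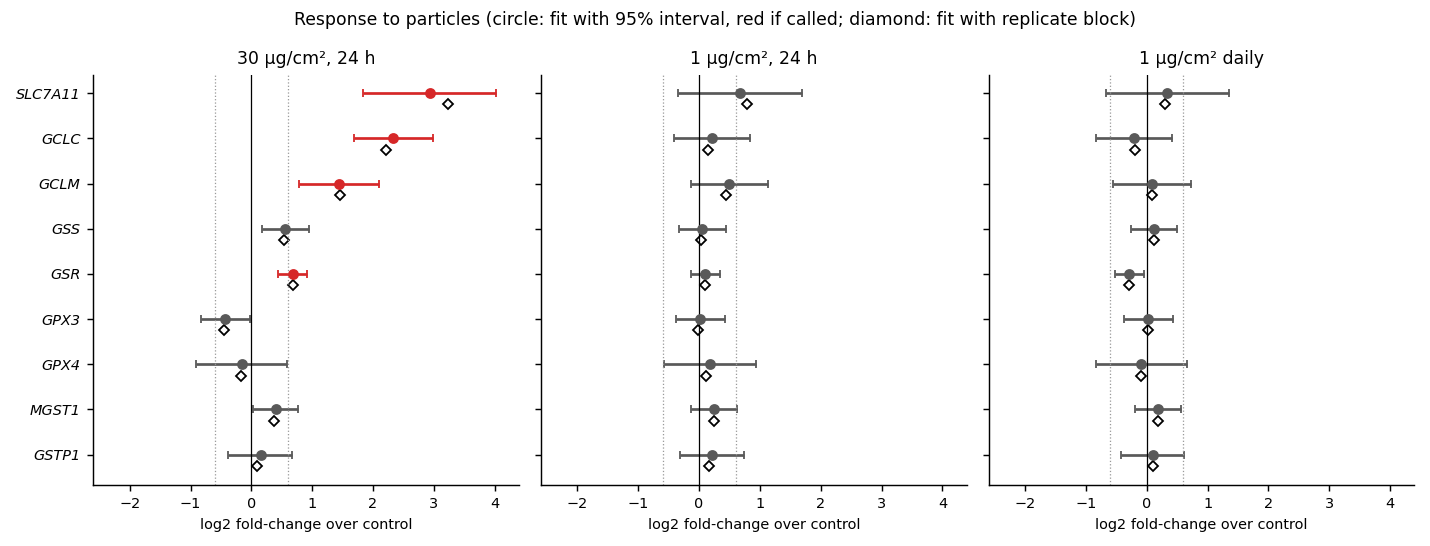
Fitted log2 fold-change over the control of the same protocol for 9 of the 10 genes (GPX2 left out for its few reads) after 30 µg/cm2 at 24 h, 1 µg/cm2 at 24 h and daily 1 µg/cm2; circles with 95% intervals are from the fit of all 15 libraries, red where both thresholds were passed, diamonds are the fit with the replicate block, and dotted lines mark ±0.6. Only the left panel holds called genes, from 0.68 for GSR to 2.93 for SLC7A11.

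Among the peroxidases, GPX4 (ENSG00000167468.16, chromosome 19, 1103926 to 1106791, plus strand), which reduces lipid hydroperoxides in membranes, was at 129, 254 and 151 CPM in the controls and at 124, 230 and 122 CPM after 30 µg/cm2. Experiment 2 was highest in both groups, which overlapped, and the log2 fold-change of -0.16 had a 95% interval of -0.91 to 0.59 (adjusted p = 0.834). GPX3 (ENSG00000211445.11, chromosome 5, 151020438 to 151028993, plus strand), which encodes a secreted peroxidase, was at 34.1, 40.9 and 40.3 CPM in the controls and at 25.7, 35.5 and 24.3 CPM after treatment. GPX3 was lower than its own control in each experiment, at 0.754, 0.867 and 0.602 of it, as were 23.8% of all tested genes, and the groups overlapped. Its log2 fold-change of -0.43 (SE 0.188) gave an adjusted p-value of 0.178, and with the replicate block 0.0109 at -0.45. Without the treated library of experiment 2 it passed both thresholds (log2 fold-change -0.62, adjusted p = 0.0399).

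GPX2 (ENSG00000176153.11, chromosome 14, 64939152 to 64942905, minus strand), a peroxidase best known from the gut epithelium, was close to the floor everywhere. The controls held 3, 1 and 8 of its reads, the libraries of 1 µg/cm2 held 12, 11 and 6, and those of 30 µg/cm2 held 14, 11 and 10. In the repeated protocol there were 2, 4 and 2 reads in the controls and 1, 0 and 6 after daily exposure, which allows up to 0.0866 CPM in the library with none. The gene passed the filter on low counts only through the exposed 24-h libraries, so their higher counts are a condition of its being tested, and no fold-change is given.

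Neither transferase was called. MGST1 (ENSG00000008394.12, chromosome 12, 16347142 to 16609259, plus strand), a membrane-bound enzyme with transferase and peroxidase activity, was at 263, 351 and 322 CPM in the controls and at 328, 547 and 354 CPM after 30 µg/cm2. It was higher in all 3 experiments, by 1.25-, 1.56- and 1.10-fold, as were 27.3% of all tested genes, and the groups overlapped. Its log2 fold-change was 0.40 (SE 0.177) with an adjusted p-value of 0.190, or 0.0315 at 0.38 with the replicate block. GSTP1 (ENSG00000084207.15, chromosome 11, 67583595 to 67586660, plus strand), the pi-class enzyme of the cytosol, was at 462, 585 and 544 CPM in the controls and at 444, 827 and 492 CPM after treatment. It was higher in experiment 2 and slightly lower in the others, and the log2 fold-change of 0.15 had an interval of -0.38 to 0.67 (adjusted p = 0.776).

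Counting by overlap, and leaving out GPX2, 5 of 9 genes (the 4 called and GSS) had all treated libraries above all controls, compared with 11.7% of all tested genes, and 0 had them all below.

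The question of dose was addressed by 1 µg/cm2 for 24 h. None of the 10 genes was called against the same controls, where 0.0625% of all tested genes were, or 11 genes (534 at an unadjusted p-value under 0.05). DESeq2 called 39 genes and 0 of the 10. Treated and control libraries overlapped for all 10, and did not for 4.44% of all tested genes. Apart from GPX2, the largest log2 fold-changes were those of SLC7A11, at 62.3, 110 and 56.4 CPM (76.4 ± 29.7), and GCLM, at 126, 52.2 and 135 CPM (104 ± 45.4). SLC7A11 stood above its own control by 2.27-, 1.19- and 2.38-fold and GCLM by 1.47-, 1.04- and 1.57-fold, and experiment 2 gave the smallest ratio of both. The log2 fold-change was 0.67 for SLC7A11 (95% interval -0.35 to 1.69, adjusted p = 1) and 0.50 for GCLM (-0.14 to 1.13, adjusted p = 1).

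Both results depended on that experiment. With the libraries of 24-h experiment 2 left out, SLC7A11 (log2 fold-change 1.22, adjusted p = 0.000865) and GCLM (0.61, adjusted p = 0.000321) passed both thresholds, among 378 genes then called (2.11% of those tested). GCLC (61.9, 36.0 and 63.5 CPM) was at 1.23, 0.882 and 1.30 times its own control and was not called with or without experiment 2. Its adjusted p-value was below 0.05 in 2 of 24 other settings (lowest 0.00126). Its log2 fold-change was at most 0.43 over these settings, under the fold threshold. GSR (95, 82.8 and 104 CPM) and GSS (141, 226 and 153 CPM) had log2 fold-changes of 0.10 (-0.14 to 0.34) and 0.05 (-0.33 to 0.44). GPX3, GPX4, MGST1 and GSTP1 lay between 0.02 and 0.24, with adjusted p-values of 1.

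**Figure D3:**
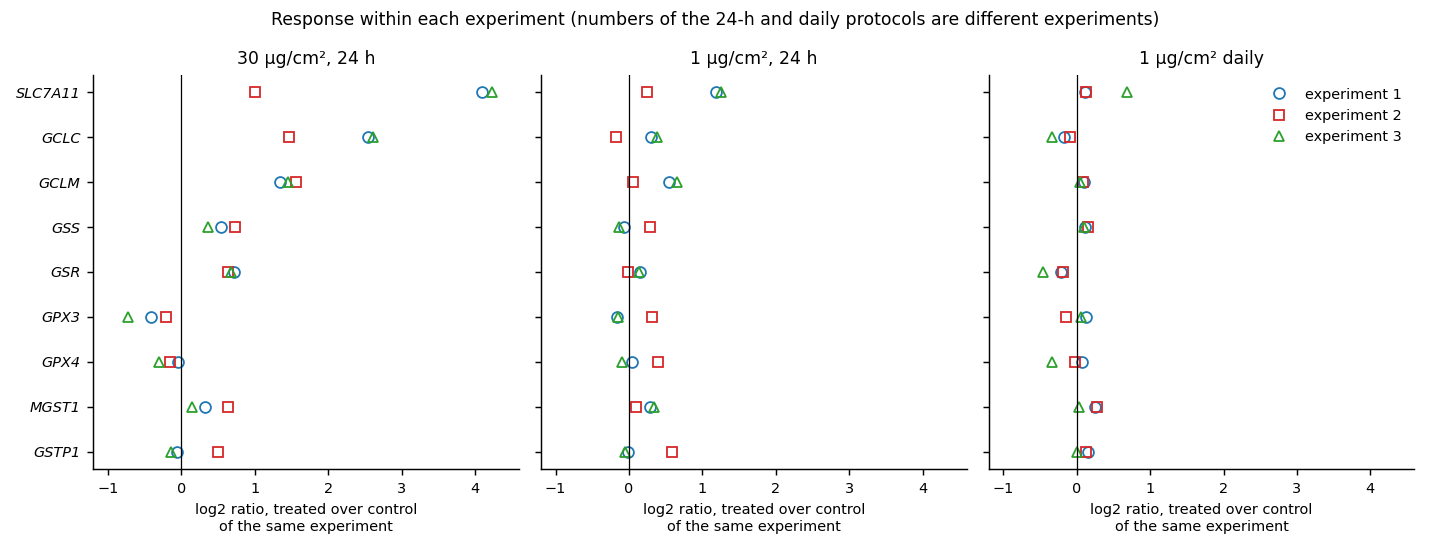
Log2 ratio of each treated library to the control library of the same experiment for 9 of the 10 genes (GPX2 left out for its few reads), in 3 panels for 30 µg/cm2 at 24 h, 1 µg/cm2 at 24 h and daily 1 µg/cm2. The points of GCLM (1.34, 1.56, 1.45) and GSR (0.72, 0.64, 0.67) lie close together in the left panel, whereas SLC7A11 lies at 4.09, 1.00 and 4.23 and GCLC at 2.54, 1.47 and 2.61.

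Set against each other, the 2 doses differed in SLC7A11, which was 4.79-fold higher after 30 than after 1 µg/cm2 (log2 fold-change 2.26, SE 0.493, adjusted p = 0.0105), and in GCLC, 4.37-fold higher (2.13, SE 0.302, adjusted p = 0.000731). These 2 of 10 genes were called and 0 were lower, beside 7.84% of all tested genes in either direction. The call of SLC7A11 was lost without the 1 µg/cm2 library of experiment 1 (log2 fold-change 2.11, adjusted p = 0.0501), without that of experiment 3 (2.07, adjusted p = 0.0527) and with the 24-h libraries alone (2.25, adjusted p = 0.0798). GCLM was 1.92-fold higher at a log2 fold-change of 0.94 (adjusted p = 0.0617), and the replicate block called it (1.02, adjusted p = 6.3e-05), with 15.6% of all tested genes. GSR passed the adjusted p-value but not the fold threshold (0.58, adjusted p = 0.00559). With SLC7A11, GCLC, GCLM and GSR, 4 of 10 genes had all libraries of the high dose above all of the low dose, as had 11.5% of tested genes. The comparisons of each dose with vehicle control share their 3 control libraries.

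Repeated exposure was examined through the daily exposures to 1 µg/cm2, which were compared with controls kept for the same time. None of the 10 genes was called, while 0.227% of all tested genes were (40 genes, 2102 at an unadjusted p-value under 0.05). DESeq2 called 251 genes and 0 of the 10. The spread in the edgeR fit is shared by all 15 libraries. With the libraries of this protocol alone 1029 genes were called, and without 24-h experiment 2 1083, with 0 of the 10 in both. The adjusted p-value was below 0.05 in 4 of 24 other settings for GSR, 2 for GCLC, 2 for MGST1 and 1 for SLC7A11. None of these passed the fold threshold. The controls lay closer together than at 24 h, with an SD of 7.62 CPM for SLC7A11 against 39.1 CPM. The exposed library of experiment 3 differed more from the other exposed libraries (chi-square per degree of freedom 25.6 and 19.8) than these did from each other (4.71). SLC7A11 was at 89.2, 99.4 and 104 CPM in the controls and at 96.0, 108 and 167 CPM after exposure. The exposed libraries of experiments 2 and 3 were above all controls, experiment 2 by little, and the groups overlapped. Its log2 fold-change was 0.34 (-0.67 to 1.36). The ligase subunits were at 49.8, 46.0 and 54.2 CPM against 43.8, 43.4 and 42.7 CPM for GCLC and at 42.6, 39.2 and 44.1 CPM against 45.6, 41.7 and 45.7 CPM for GCLM, control before exposed. GCLC was lower in every exposed library than in every control, by little (log2 fold-change -0.21, -0.83 to 0.42), and GCLM was nearly level (0.08, -0.56 to 0.72).

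GSR had the lowest unadjusted p-value of the 10 genes after daily exposure, in the direction opposite to that of the high dose. It was at 91.1, 83.2 and 94.2 CPM in the controls (89.5 ± 5.64) and at 78.0, 72.8 and 68.4 CPM after exposure (73.1 ± 4.81), or 0.856, 0.874 and 0.727 times its own control. The groups did not overlap, as for 21.6% of all tested genes in this direction. The log2 fold-change of -0.29 (SE 0.112) had an adjusted p-value of 0.315, and with the replicate block 0.0321, still under the fold threshold. Under that adjusted p-value alone, 7.32% of all tested genes were lower.

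GSS (165, 158 and 158 CPM in the controls, 179, 175 and 169 CPM after exposure), MGST1 (138, 135 and 145 against 164, 163 and 149 CPM) and GSTP1 (454, 427 and 464 against 503, 469 and 466 CPM) were higher in every exposed library, with log2 fold-changes of 0.12, 0.18 and 0.10. Differences of this size were common, since 21.3% of all tested genes had exposed libraries that all lay above the controls. GPX4 (144, 138 and 148 against 151, 136 and 117 CPM) and GPX3 (17.4, 16.6 and 16.7 against 19.1, 15 and 17.3 CPM) overlapped.

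The response to daily exposure minus the response to a single exposure of 1 µg/cm2 was called in 0 of 10 genes and in 0 of all 17599 genes by edgeR (0% of tested genes, 1245 at an unadjusted p-value under 0.05), and DESeq2 called 66 genes and 0 of the 10. The difference was -0.33 for SLC7A11 (95% interval -1.76 to 1.11), -0.41 for GCLC (-1.30 to 0.47) and -0.42 for GCLM (-1.32 to 0.48). GSR differed by -0.39 (-0.73 to -0.05, adjusted p = 0.654). Without the libraries of 24-h experiment 2, the difference of SLC7A11 was -0.88 (adjusted p = 0.0151) and passed both thresholds, with 9.84% of tested genes. The protocols also differed in plating density, days in culture, washing and total dose, so the part of repetition cannot be told apart.

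The controls of the 2 protocols also differed in these genes, and since plating density, days in culture and washing changed together, their parts cannot be told apart. MGST1 was at 138 to 145 CPM in the 7-day controls and at 263 to 351 CPM in the 24-h controls, 2.23-fold lower (log2 fold-change -1.16, SE 0.179, adjusted p = 0.000404). GPX3 was at 16.6 to 17.4 CPM against 34.1 to 40.9 CPM, 2.28-fold lower (-1.19, SE 0.191, adjusted p = 0.000537). These 2 of 10 genes were called lower and 0 higher, where 21.9% of all tested genes were called and 10.8% lower, and both were called in 21 of 21 other settings. Including GCLM, 3 of 10 had all 7-day controls below all 24-h controls, as had 24.7% of tested genes. GCLM (39.2 to 44.1 CPM against 50.1 to 86.0 CPM) had a log2 fold-change of -0.82 and an adjusted p-value of 0.0542, and was called in 10 of 21 other settings. SLC7A11 was higher by 1.02 (adjusted p = 0.125), and by 1.92 (adjusted p = 1.5e-07) without 24-h experiment 2, whose control library was the only one of the 24-h controls in the range of the 7-day controls. The responses to daily exposure were measured from these 7-day levels.

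Divided by the exon length of each gene in the count table, levels of the 10 genes were put in order. This length takes in all annotated exons, from 1499 bases for GPX2 to 9645 for SLC7A11. It can exceed that of the transcript expressed, which was not tested, so the order is approximate. In the 24-h controls GSTP1 led with 277 ± 32.7 RPKM (reads per kilobase of exon per 1e6 reads), followed by GPX4 (88.0 ± 33.2), GSS (87.1 ± 10), MGST1 (41.9 ± 6.03), GSR (27.1 ± 1.76), GCLM (13.7 ± 3.82), GPX3 (12.2 ± 1.20), GCLC (5.52 ± 0.60), SLC7A11 (4.99 ± 4.05) and GPX2 (0.0936 ± 0.0840). The ranges of neighbours overlapped for GPX4 and GSS, for GCLM and GPX3, and for GCLC and SLC7A11. On this scale GSTP1, GPX4 and MGST1, which use glutathione, were above both ligase subunits and the transporter at rest, whereas GPX3 overlapped GCLM and GPX2 was last. After 30 µg/cm2 the order changed. SLC7A11 (37.9 ± 16.1 RPKM), GCLM (37.0 ± 8.53) and GCLC (27.8 ± 12.5) followed GSR (43.3 ± 3.07) in the order. The ranges of neighbours overlapped from GSR down to GCLC, but that of GCLC (13.4 to 35.4 RPKM) lay below that of GSR (40.1 to 46.2 RPKM), while GSTP1 remained the most abundant at 307 ± 109 RPKM. In the 7-day controls the order was GSTP1, GSS, GPX4, GSR, MGST1, SLC7A11, GCLM, GCLC, GPX3 and GPX2, and only GCLC and GPX3 overlapped as neighbours.

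**Figure D4:**
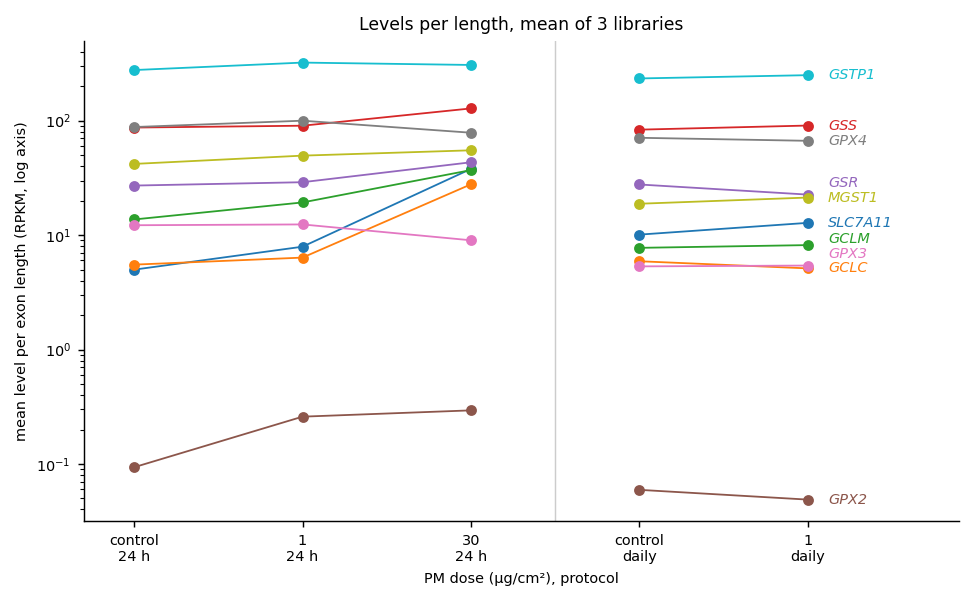
Mean level per exon length of the 10 genes in the 5 conditions (RPKM, log axis, mean of 3 libraries; lines join conditions of one protocol). From control to 30 µg/cm2 at 24 h, SLC7A11 goes from 4.99 to 37.9 RPKM and GCLC from 5.52 to 27.8 RPKM, whereas GSTP1 stays between 277 and 322 RPKM.

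A wider list of 38 other glutathione genes, all tested, was read in the same way. After 30 µg/cm2 at 24 h, 3 rose and 1 fell, a share near the 8.07% of all tested genes that were called, with a median log2 fold-change of -0.02 against 0.03 over all tested genes. The 3 that rose were all 3 genes of cystine supply and cysteine synthesis on the list. This list was also chosen with earlier results of these data known, so the grouping describes these genes and does not test them as a set. SLC3A2, the heavy chain that carries SLC7A11 to the membrane, was at 358, 707 and 417 CPM in the controls and at 1002, 1148 and 1042 CPM after treatment (log2 fold-change 1.11, adjusted p = 0.0154). CTH and CBS, the enzymes that make cysteine from homocysteine, rose by 1.55 (adjusted p = 0.00405) and 0.96 (adjusted p = 0.00664) on the log2 scale. CTH went from 7.92, 14.4 and 8.33 to 32.6, 23.3 and 33.8 CPM and CBS from 2.08, 1.98 and 1.88 to 4.41, 3.95 and 3.16 CPM. Neither gene overlapped between groups.

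The gene that fell was ANPEP, an aminopeptidase of the cell surface that splits the cysteinylglycine left by glutathione breakdown. It was at 63.1, 95.4 and 61.3 CPM in the controls and at 28.1, 44.2 and 26.9 CPM after treatment (log2 fold-change -1.15, adjusted p = 0.00299). CHAC1, which breaks down glutathione inside the cell, was at 5.03, 108 and 6.16 CPM in the controls and at 95.7, 104 and 93.6 CPM after treatment. The control of experiment 2 was thus already at the level of the treated libraries. CHAC1 was not called (log2 fold-change 1.31, adjusted p = 0.433), but was called with the replicate block (2.68, adjusted p = 0.00625) and without experiment 2 (4.07, adjusted p = 9.08e-11). GGT5, related to the gamma-glutamyl transferases, was at 88.4, 52.2 and 91.6 CPM in the controls and at 17.1, 59.2 and 17.2 CPM after treatment, so that experiment 2 went the other way. It was not called (log2 fold-change -1.31, adjusted p = 0.0514), but was with the block (-1.55, adjusted p = 0.00716) and without experiment 2 (-2.40, adjusted p = 1.07e-11). None of the other 4 peroxidases, 11 transferases, 5 glutaredoxins and related genes, 4 genes of the glyoxalase and formaldehyde route and 2 mitochondrial carriers was called. Without experiment 2, 5 of the 38 were called higher and 4 lower (19.1% of all tested genes were called in that fit), with OPLAH (0.74) added among the higher and MGST3 (-0.71) and GLRX5 (-0.68) among the lower.

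**Figure D5:**
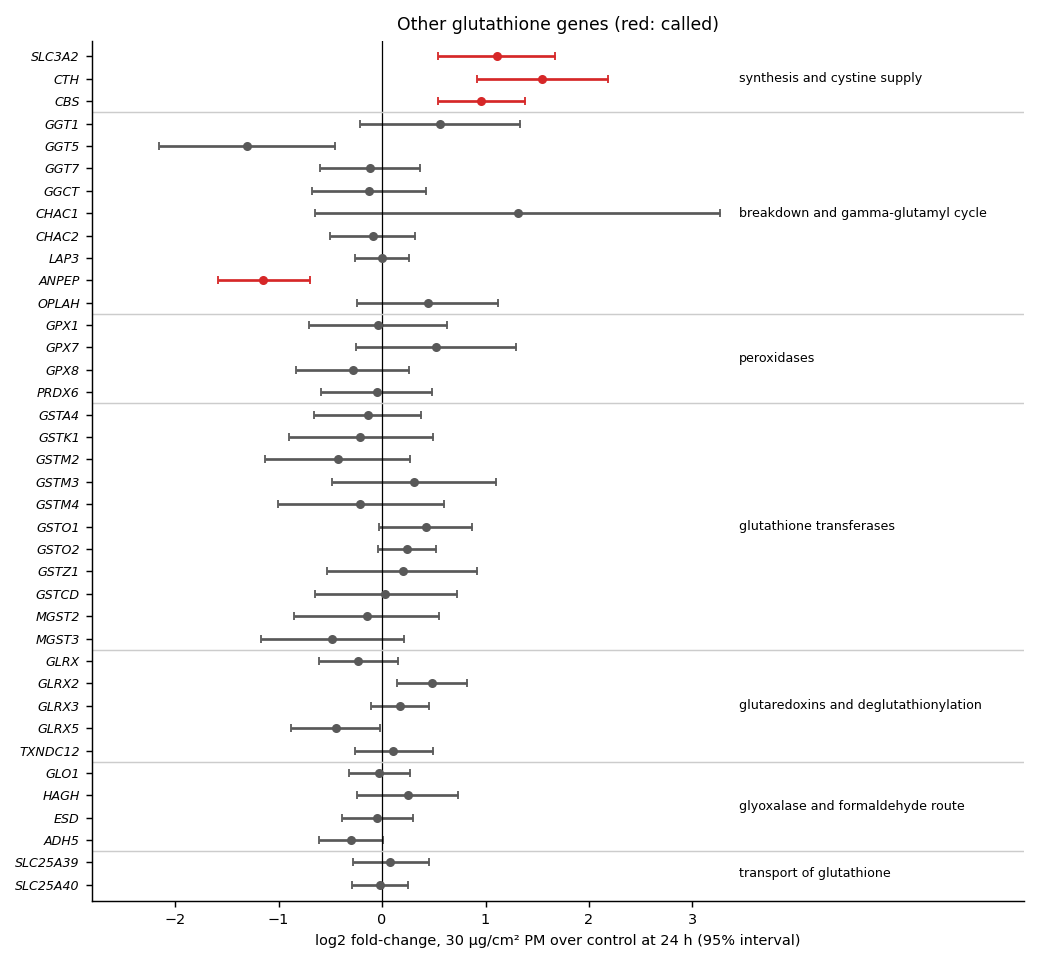
Fitted log2 fold-change with 95% interval for 38 other glutathione genes after 30 µg/cm2 of PM2.5 against vehicle control at 24 h, grouped by role; red marks genes past both thresholds. The 3 genes of synthesis and cystine supply are red on the right (SLC3A2 1.11, CTH 1.55, CBS 0.96), ANPEP is red on the left (-1.15), and CHAC1 has a wide interval around 1.31.

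At the low dose the wider list held no gene past both thresholds in the fit of all 15 libraries. After a single 1 µg/cm2, 0 of 38 genes were called, and SLC3A2 was called with the replicate block (log2 fold-change 0.92, adjusted p = 0.0120) and without experiment 2 (0.90, adjusted p = 9.17e-06), when 2 of the 38 were higher (SLC3A2 and CHAC1) and 2 lower (GGT5 and GLRX), beside 2.11% of all tested genes in that fit. After daily exposure, 0 of 38 were called, and CHAC2, a slower relative of CHAC1, was called with the block (0.90, adjusted p = 0.00563), from 8.48, 7.30 and 8.34 CPM in the controls to 12.8, 13.7 and 18.8 CPM. SLC3A2 was higher in every library of daily exposure than in every control, as were 21.3% of all tested genes. It went from 685, 665 and 693 to 1008, 957 and 1017 CPM. After the single exposure SLC3A2 was at 1.95, 1.95 and 1.77 times its own control, and the groups overlapped. With the 24-h libraries of experiment 2 out of the fit, CHAC2 (0.91), CHAC1 (0.79) and CTH (0.73) were called higher after daily exposure, beside 6.03% of tested genes. Between the 2 doses, CTH (1.17) and CBS (0.82) were higher and ANPEP (-1.01) lower after 30 µg/cm2, near the 7.84% of all tested genes called. In the 7-day compared with the 24-h controls, 3 were higher (CTH, CBS and SLC25A40) and 5 lower (GPX8, PRDX6, CHAC2, GLRX and GSTO1), with log2 differences from -1.38 for GLRX to 0.93 for SLC25A40. This share was like the 21.9% of all tested genes called, and without 24-h experiment 2 the counts were 7 and 5, beside 31.0%. The genes changed too. GPX8 (106, 192 and 120 CPM in the 24-h controls) and PRDX6 (352, 562 and 428 CPM) were highest in experiment 2. Neither was called without it, when GGT5 (-1.26) and GLO1 (-0.64) were among the lower. SLC3A2 (0.80), CHAC1 (2.61), OPLAH (1.05) and GSTM2 (0.66) were then added among the higher.

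The genes whose response was most like that of GCLM and of SLC7A11 were found among 10350 genes with a mean of at least 8 CPM, as those with the smallest mean absolute difference in log2 ratio over the 9 pairs of treated and control libraries. For GCLM they were NIPAL2 (0.18), JARID2 (0.18), AMPD3 (0.19), SQSTM1 (0.21) and PITPNM2 (0.21). For SLC7A11 they were ADM2 (0.33), HMOX1 (0.39), ASNS (0.48), ERFE (0.52) and NIBAN1 (0.58). JARID2 (adjusted p = 0.0627) and ADM2 (adjusted p = 0.0723) were not called after 30 µg/cm2 at 24 h. HMOX1, the heme oxygenase, had log2 ratios of 3.84, 2.04 and 3.73 after 30 µg/cm2, and ASNS, asparagine synthetase, of 3.08, 1.13 and 2.96. Both had their smallest ratio in experiment 2, as SLC7A11 did. The choice of genes by closeness over these same pairs favours such a likeness, so it is not a separate result. GCLC, the partner of GCLM in the ligase, ranked 287 among the genes closest to GCLM (0.45) and 29 among those closest to SLC7A11 (0.81). By the difference itself GCLC was thus nearer to GCLM, and the ranks also depend on how many other genes lie close.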

How the data were processed

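The authors deposited one table of raw counts per gene, for which STAR 2.5.3 placed single-end 50-base reads of poly-A RNA on GRCh38 and featureCounts assigned them to genes. Their table also gives exon positions and lengths. The submitters' notes name hg19, but the coordinates in the table are those of GRCh38. The strand used in counting is not given in the sources used here. Symbols came from GENCODE 44 by Ensembl identifier (57392 of 58219 matched).

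Counts were tested in R 4.3.3 with edgeR 4.0.16 (quasi-likelihood test, TMM scaling, filterByExpr, all 15 libraries, 1 mean per condition). The thresholds of the study were used (Benjamini-Hochberg adjusted p-value below 0.05, log2 fold-change of 0.6 or more in size). All p-values are two-sided. CPM and RPKM were computed from the TMM-scaled library sizes. The series record gives the last digit of a sample name as its experimental batch, so libraries of one number and protocol were taken as pairs, and the replicate block adds this number to the fit. Deviations from the condition means correlated at 0.185 to 0.700 between libraries of one number at 24 h and at 0.108 to 0.159 in the repeated protocol. The numbers of the 2 protocols were taken as different experiments, which the sample labels do not state and which was not tested. Other settings covered RLE and upper-quartile scaling, no filter, DESeq2 1.42.0, the libraries of 1 protocol, and each library left out. Tests ran on simulated data first.

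The named genes are the 10 genes, the listed other glutathione genes past both thresholds or of note by role, and the 5 genes most similar to GCLM and to SLC7A11. Genes and lists were chosen with earlier results of these data known.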

Additional observations from a re-analysis of the deposited data

How the results depend on the processing

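Counts of calls moved with the replicate block, with the libraries in the fit and with 24-h experiment 2. Genes called after 30 µg/cm2 (1420) became 2681 with the block, 545 in the 24-h libraries alone, 3430 without experiment 2 and 3699 with both changes, the last of these settings having been chosen after seeing the data. After 1 µg/cm2 at 24 h (11) they became 74, 3, 378 and 590 in the same order, 38 with no filter and 39 with DESeq2, and 2 of the 10 glutathione genes were called in both fits without experiment 2. For 30 against 1 µg/cm2 (1379) they became 2737, 425, 3113 and 3374, with 1 of the 10 called in the 24-h libraries alone (2 otherwise) and 3 with the block, with no filter, with DESeq2 and in both fits without experiment 2. After daily exposure (40) they became 773, 1029, 1083 and 1353, 92 with no filter and 251 with DESeq2. For the daily minus the single response (0) they became 181 with the block, 1766 and 2213 without experiment 2 (1 of the 10 in each), 20 with no filter and 66 with DESeq2. The cause was not tested. Between the controls (3860), 4 of the 10 were called with no filter or without experiment 2, and 3 with RLE, upper-quartile scaling or DESeq2. No paired analysis was made for them because their numbers were taken as different experiments.

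Leaving out single libraries gave 794 to 2706 called genes after 30 µg/cm2 (4 to 5 of the 10), 4 to 45 after 1 µg/cm2 (0 to 0), 711 to 2715 between the doses (1 to 5), 0 to 104 after daily exposure (0 to 0), 0 to 63 for daily minus single (0 to 0) and 2832 to 4504 between controls (2 to 4). Of 1399 values of the 10 genes under other settings, 31 gained a call, 4 lost one, and 62 changed sign, 0 of them past both thresholds. Upper-quartile scaling moved the share of higher calls after daily exposure from 45.0% to 59.4%, and edgeR's current mode to 33.9%.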
